A study of Mus musculus with 14 samples.

Results

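The genes that encode the proteins of the cytosolic ribosome were described in mouse cerebellum, in RNA bound to the ribosomes of Purkinje cells and in RNA of the whole tissue. Members were chosen by symbol: Rpl or Rps followed by a number, together with Rplp0, Rplp1, Rplp2 and Rpsa, protein-coding genes only, without pseudogenes and without the S6 kinase and Rps19bp genes that share the prefix. Of the 24100 genes counted, 87 met this rule, 54 of the large and 33 of the small subunit, and 9 of them are listed as copies of another member. They lie on 19 chromosomes, with 14 of them on chromosome 7.

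RNA was sequenced from cerebella of littermate mice with intact Astn2 (WT) or without ASTN2, a neuronal membrane protein (knockout, KO). All mice were 21 days old and carried the Pcp2-EGFP-L10a bacTRAP transgene, in which the Purkinje cell promoter Pcp2 drives ribosomal protein L10a fused to EGFP. Translating ribosome affinity purification (TRAP) pulled the tagged ribosomes down with antibodies against GFP, and part of the cleared homogenate was kept before that as input, which stands for whole cerebellum. There were 4 input WT libraries (1 female, 3 male), 3 input KO (2 female, 1 male), 3 TRAP WT (1 female, 2 male) and 4 TRAP KO (2 female, 2 male). The strain background, and whether 1 library is 1 animal, are not given in the sources used here, so p-values measure the spread between these libraries.

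Each cytosolic ribosome carries 1 copy of nearly every one of these proteins, with the acidic stalk proteins as the known exception. Their mRNAs are abundant and short, and most are known to begin with a C followed by a run of pyrimidines, the 5′ terminal oligopyrimidine (TOP) tract through which mTOR signalling sets how strongly they are translated. L10a, made from Rpl10a, forms the mobile L1 stalk of the large subunit, beside the site where tRNAs leave the ribosome. Because the tag is itself L10a, counts listed for Rpl10a cannot be divided between the gene and the transgene.

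The start of the mRNA is shown for members at both ends of the TRAP to input range, since the TOP tract is the sequence element these genes are best known for. Each window runs from 8 bases before to 13 bases after the annotated start base (RefSeq, GRCm38.p6), and capitals mark a C followed by at least 4 C or T that begins within 5 bases of the start. Windows without capitals have no such run.
Rpl38: gcctcgttCTTTCCCCgttctc
Rpl22l1: gcaagcccgttCTCTTCCCacg
Rps15a: tctgccatCTTCCCTCgccggt
Rpl10a: ccccccagcggccgcaaactgc
Rpl41: gccggctcggaagtgacgacac
Rplp0: ggtttcgaggaccgcctggttc
Rps4x: tgggcggagcaacccaggctcc
These windows lie at chr11:114668572-114668593 (plus strand), chr3:28805500-28805521 (plus), chr7:118116134-118116155 (minus), chr17:28328463-28328484 (plus), chr10:128549155-128549176 (minus), chr5:115559459-115559480 (plus) and chrX:102189378-102189399 (minus), in the order given.

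The promoter table held 67 of the members. A pyrimidine run at a start, read on the gene's own strand, was found in 31 of these 67 (46.3%) and in 5718 of all 27025 genes with a promoter sequence (21.2%). The motif CCGGAAGT, on either strand within 250 bases before to 50 after the start, was present in 12 members (17.9%) and in 4.31% of all genes. AAGATGGC, searched the same way, was present in 6 members (8.96%) and in 3.19% of all genes. A match is a description of the letters in these windows, which depend on where the table places the start.

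Library totals ranged from 18799609 to 54229183 counts. The 4 members Rpl10l, Rpl32l, Rpl39l and Rps23rg1 had at most 7 counts in any library, where 3 counts stand for 0.0444 to 0.204 CPM (counts-per-million values, scaled by TMM factors), and they were not tested. The other 83 passed the filter on low counts in each comparison. Astn2 was between 87.8 and 145 CPM in WT libraries and at most 2.1 CPM in KO libraries. The 12 Purkinje markers summed to between 6960 and 7370 CPM in input WT and between 7530 and 8760 CPM in input KO. They summed to between 72700 and 85200 CPM in TRAP, and all 12 were higher in TRAP. At an unadjusted p under 0.05 in edgeR's test, 6 of them were higher and 0 lower in input KO than in input WT. Of all 15997 genes tested, 998 were higher and 1200 lower at that p. The 8 endothelial markers all had negative values, KO over WT in input, with a median of -0.60 and 4 at that p. No marker of these lists was called. The 10 granule cell markers summed to between 5340 and 5600 CPM in input and between 839 and 1530 CPM in TRAP, so other cells' RNA was reduced but present. The 10 astroglial and the 10 oligodendrocyte markers were all lower in TRAP in both genotypes, and the 6 choroid plexus markers summed to between 10.0 and 1170 CPM over the input libraries. The part of these markers' cells in the results below was not tested. In such bulk samples fewer cells of a type and less RNA per cell cannot be told apart.

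Replicate 3 of TRAP WT stood apart. Of the 83 members tested, 46 were lower in it than in all 6 other TRAP libraries and 18 were higher, which together is 77.1%, against 62.3% of all genes tested in TRAP. The SD over members of its deviation from the median of the other TRAP libraries was 0.76 on the log2(CPM + 1) scale, and lay between 0.08 and 0.27 in the other TRAP libraries. Replicate 2 of TRAP WT had 60 members above all other TRAP libraries and 1 below, together 73.5%, against 40.1% of all genes. Both libraries belong to the smaller TRAP group. Results that involve TRAP WT are therefore also given without replicate 3 or without replicate 2 for the counts of members and for some members. They are not given for every member that moves.

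**Figure D1:**
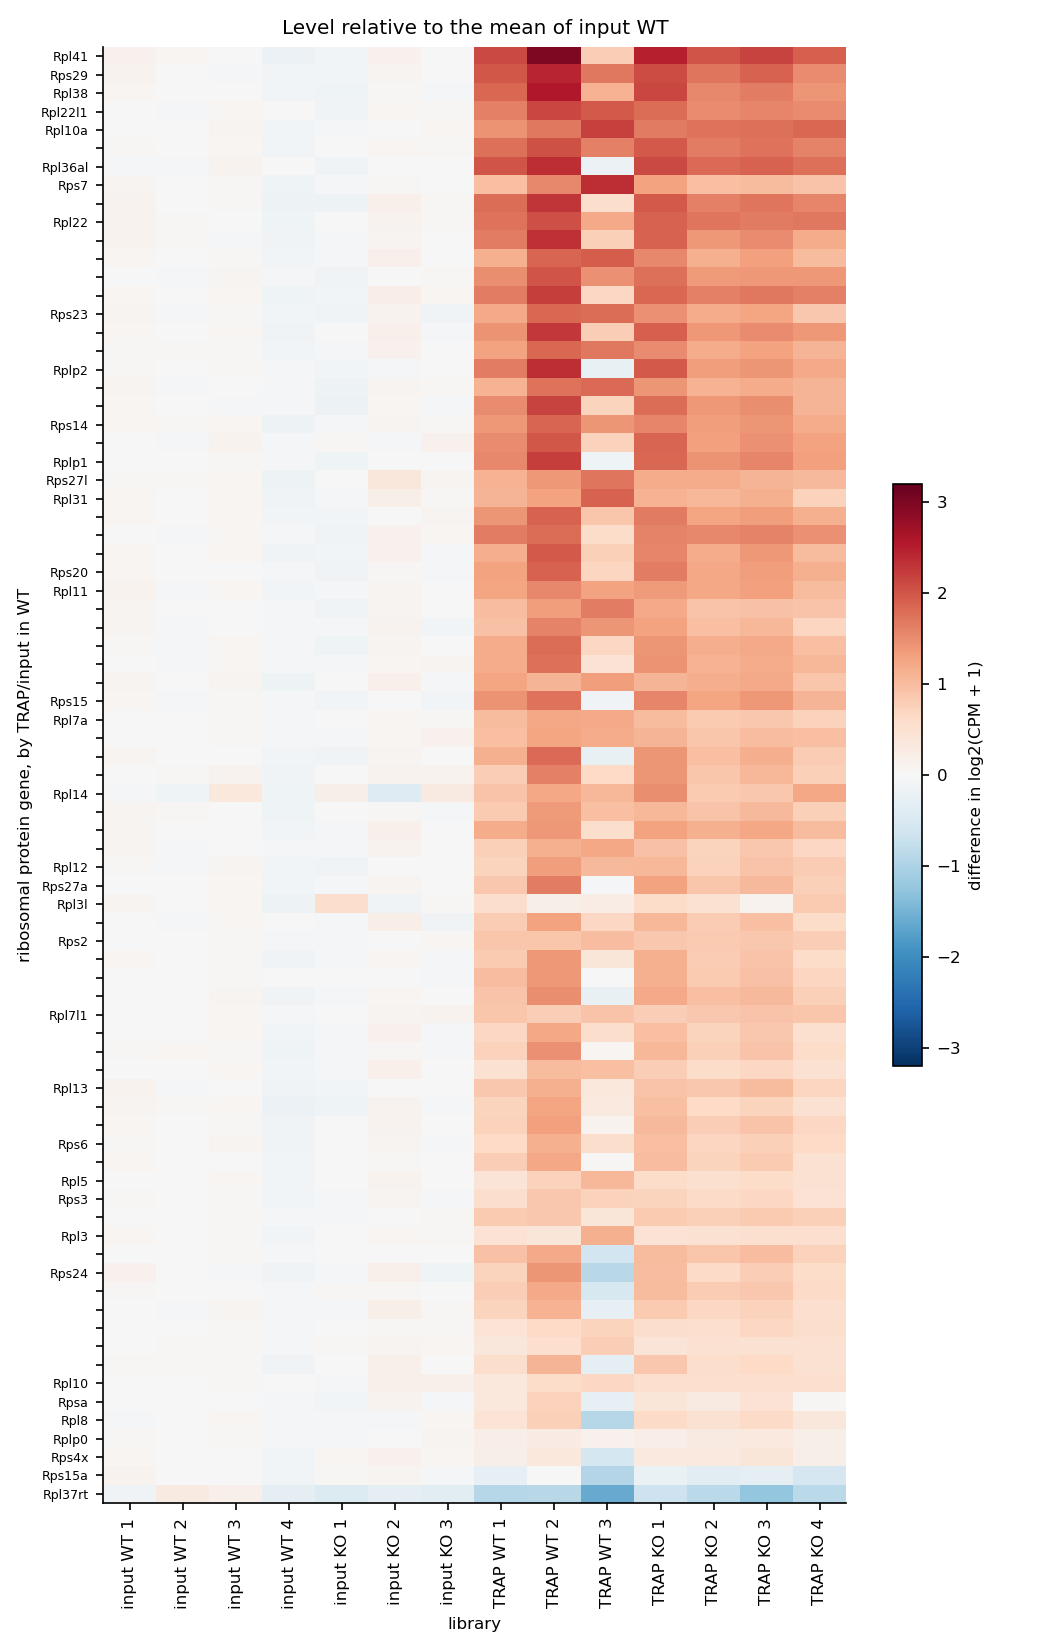
Level of 79 of the 83 tested ribosomal protein genes (rows, ordered by TRAP/input in WT, with the genes named in the text labelled) in each of the 14 libraries (columns), as the difference in log2(CPM + 1) from the mean of the 4 input WT libraries. Input libraries are near 0, TRAP libraries are mostly red, and TRAP WT 3 shows a mosaic of its own, in which 46 of the 83 members are below and 18 above the other 6 TRAP libraries.

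In input, the summed share of ribosomal protein transcripts was similar between libraries and genotypes. Summed over the 87 members they made up 1.23 ± 0.0562% of the input WT counts (SD, n = 4). In input KO the share was 1.22 ± 0.0693% (SD, n = 3). Compared per kilobase of transcript, the highest input WT levels were those of Rpl41 (312 CPM per kb), the stalk gene Rplp1 (294), Rps14 (281), Rpl13 (242) and Rpl3 (239). The lowest tested were Rpl3l (0.307 CPM per kb), Rpl37rt (4.54), Rps20 (16.4), Rps27l (20.5) and Rps15a (22.5). The values of Rps20 and Rps15a rest on annotated transcripts of 3706 and 5179 bases, which exceed their coding lengths of 357 and 390 bases many times, so their levels per kilobase are low by that choice of transcript.

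In TRAP the same transcripts took a larger and more variable part. Scaled by TMM factors, the sum over members was 9638, 9337, 9661 and 8818 CPM in input WT and 19188, 26001 and 17325 CPM in TRAP WT. It was 9065, 9862 and 9433 CPM in input KO and 22084, 18621, 19792 and 17357 CPM in TRAP KO. On this scale every TRAP library was above every input library, and the genotypes overlapped within each fraction. As a share of the raw counts the fractions overlapped, with 1.28% in TRAP WT 3 and 1.29% and 1.30% in input WT 1 and input KO 2. On that scale TRAP WT had 1.56 ± 0.309% (SD over 3 libraries) and TRAP KO had 1.52 ± 0.141% (SD over 4). Per kilobase, Rpl41 (1460 CPM per kb), Rplp1 (835), Rps14 (834) and Rps29 (739) were among the 5 highest in TRAP WT.

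The first comparison asked which members were enriched on Purkinje cell ribosomes in WT cerebellum. By edgeR's quasi-likelihood test with Benjamini-Hochberg adjustment over all 16042 genes, 75 of 83 members were higher in TRAP, where 37.0% of all genes were, and 1 was lower, where 38.5% of all genes were. The median log2 fold change was 1.10 over members and -0.09 over all genes. Large subunit members (47 of 51 higher, median 1.16) and small subunit members (28 of 32 higher, median 1.08) were close to each other. Of the 83, 61 had every TRAP WT library above every input WT library, as did 34.2% of all genes. Without TRAP WT 3, 80 members were higher and 1 lower, and the median was 1.19. Without TRAP WT 2, 62 were higher and 2 lower, and it was 0.85. The share of all genes called in these fits is not given here. Scaled by library totals in place of TMM factors, 36 were higher and 8 lower. Of all 16042 genes, 12936 were then past the threshold, counted in either direction. That scaling moved the median of all genes to -0.91 and that of the members to 0.28, and the distance between them was 1.18, against 1.19 with TMM factors.

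Rpl10a (Entrez 19896, chr17:28328471-28331033), the gene of the tagged protein, was at 85.2, 84.7, 91.1 and 79.5 CPM in input WT and at 234, 276 and 393 CPM in TRAP WT. The groups were far apart, and the highest value was that of TRAP WT 3. Its log2 fold change was 1.83 ± 0.13 (SE; adjusted p 3e-08, edgeR), the 6th highest of 83 members and 0.74 above the median of the other members. Without TRAP WT 3 it was 1.58 ± 0.08, rank 23, and 0.40 above that median. Leaving out TRAP WT 2 instead gave Rpl10a 1.86, rank 2, and 1.01 above that median. In KO it was at 82.5, 83.8 and 89.0 CPM in input and at 270, 284, 290 and 309 CPM in TRAP, again with no overlap. The KO log2 fold change was 1.75 ± 0.14 (adjusted p 9.27e-08, edgeR), the 7th highest.

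Members of nearly the same coding length as Rpl10a, which has 651 coding bases, were less enriched. Rpl14 (651 coding bases) had a WT log2 fold change of 1.09, Rpl10 (642) of 0.55 and Rpl13 (633) of 0.82. In KO the values were 1.09, 0.45 and 0.93. How much of the Rpl10a counts comes from the transgene was not tested.

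Rpl41, the shortest member, was among the 5 with the highest ratio in both genotypes. It encodes a basic peptide of 75 coding bases without the stop codon, printed here from its ATG (capitals) because coding length is the property that the TRAP to input ratio tracked most closely among those examined.
Rpl41 (coding): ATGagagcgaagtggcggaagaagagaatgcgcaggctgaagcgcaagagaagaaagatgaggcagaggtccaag
Rpl41 was at 150, 142, 135 and 119 CPM in input WT and at 592, 1090 and 236 CPM in TRAP WT, and its log2 fold change was 2.23 ± 0.34 (SE; adjusted p 4.34e-05, edgeR). TRAP WT 3 was the low and TRAP WT 2 the high value, and the log2 fold change was 2.61 ± 0.20 without the former and 1.40 ± 0.23 without the latter. Rps29, a zinc-binding small subunit protein, had 2.09 ± 0.17, Rpl38 had 1.98 ± 0.25 and Rpl22l1, the paralogue of Rpl22, had 1.95 ± 0.12.

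The stalk of the large subunit, which recruits elongation factors, was uneven. Rplp0, the base of the stalk, was at 231, 226, 233 and 215 CPM in input WT and at 260, 273 and 247 CPM in TRAP WT. This small step, without overlap, gave a log2 fold change of 0.21 ± 0.09 (SE; adjusted p 0.0476, edgeR) in WT and 0.24 ± 0.09 (adjusted p 0.0269) in KO. The WT call was kept without TRAP WT 3 or TRAP KO 4 and lost without any of the other 12 libraries, with 0.11 ± 0.10 without TRAP WT 2, and the KO call was lost without input KO 1 or 2 or TRAP KO 2 or 3. The value reversed to -0.61 in WT and -0.49 in KO under library totals and to -0.08 and -0.11 with length offsets. Rplp1 and Rplp2, the acidic proteins that bind Rplp0, rose by 1.51 ± 0.35 and 1.61 ± 0.39 in WT. Rplp1 was at 430 and 686 CPM in TRAP WT 1 and 2 but at 134 CPM in TRAP WT 3, below the 140 to 151 CPM of input WT. Without that library the values were 1.92 ± 0.16 for Rplp1 and 2.04 ± 0.20 for Rplp2. Without TRAP WT 2 they were 0.72 ± 0.29 and 0.73 ± 0.33, and Rplp2 was no longer past the threshold (adjusted p 0.0604, edgeR). Rpl12, at the foot of the stalk, rose by 1.06 ± 0.13. Under library totals none of these 4 genes was called higher in WT.

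Rpl5 and Rpl11, which carry the 5S rRNA and bind Mdm2 when ribosome assembly fails, rose by 0.77 ± 0.12 and 1.38 ± 0.11 in WT. Rps6, the substrate of S6 kinase, rose by 0.80 ± 0.14, and Rps3 and Rps2, at the mRNA entry channel, by 0.74 ± 0.10 and 0.94 ± 0.09. Rps27a, made as a fusion to ubiquitin, rose by 0.98 ± 0.27, a call that was lost without TRAP WT 2 (0.34 ± 0.19, adjusted p 0.127, edgeR). Under library totals Rpl5, Rps3 and Rps6 had WT log2 fold changes of -0.05, -0.08 and -0.02, none past the threshold.

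Of the 7 members not called in WT, Rps15a, Rps4x, Rpl8, Rpsa and Rps24 are described here and Rpl3l with the copies; Rps24 was chosen for mention by that outcome. Rps15a was at 127, 116, 115 and 109 CPM in input WT and at 97.5, 116 and 59.9 CPM in TRAP WT, and its log2 fold change was -0.36 ± 0.17 (SE; adjusted p 0.0641, edgeR). In KO it was at 120, 123 and 114 CPM in input and at 101, 90.4, 94.4 and 79.4 CPM in TRAP, with no overlap, and -0.34 ± 0.17 (adjusted p 0.0767). Without TRAP WT 2 it was past the threshold as lower, at -0.69 ± 0.14 in WT (adjusted p 0.000681, edgeR) and in KO (adjusted p 0.0184), and without TRAP WT 3 it was in KO alone (adjusted p 0.00321). Its start carries a pyrimidine run, shown above, as does that of Rpl38. Rps4x (0.04 ± 0.16), Rpl8 (0.26 ± 0.26) and Rpsa (0.33 ± 0.18), which codes for a protein that also serves as a laminin receptor, were all low in TRAP WT 3. Without that library Rps4x (0.25, adjusted p 0.0194), Rpl8 (0.61, adjusted p 0.000116) and Rpsa (0.53, adjusted p 0.00265) were past the threshold by edgeR's test, as was Rps24 (1.09). Without TRAP WT 2 the values were -0.24, -0.23, -0.03 and -0.11 for Rps4x, Rpl8, Rpsa and Rps24, and none was past the threshold. With library totals Rps4x and Rpsa had negative WT values, -0.78 and -0.49.

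The copies of members covered nearly the whole range of ratios. Rpl22l1 was at 33.7, 32.4, 35.1 and 33.9 CPM in input WT and at 105, 152 and 134 CPM in TRAP WT, and its coding sequence is 69.7% identical to that of Rpl22, which rose by 1.73 ± 0.16. Rps27l rose by 1.51 ± 0.15 from 10.2 ± 0.81 CPM (SD, n = 4) and Rpl7l1 by 0.88 ± 0.08 from 63.3 ± 2.3 CPM. Rpl3l, known as a striated muscle form, was at 0.317 ± 0.0987 CPM in input WT and 0.664 ± 0.25 CPM in TRAP WT (SD, n = 3), and did not pass the test (adjusted p 0.112, edgeR). Rpl37rt was the 1 member called lower in WT with all libraries, from 2.72, 3.93, 3.49 and 2.25 CPM in input WT to 1.16, 1.18 and 0.33 CPM in TRAP WT, a log2 fold change of -1.88 ± 0.38 (adjusted p 0.00044). Without TRAP WT 3, the library at 0.33 CPM, Rpl37rt had -1.45 ± 0.32 (adjusted p 0.00115, edgeR). In KO it fell by 0.81 on the log2 scale (adjusted p 0.0395, edgeR), and this call was lost without input KO 2 or 3 or without TRAP KO 2, 3 or 4.

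Rpl36al and Rpl36a encode nearly the same protein from genes on chr12:69182734-69184067 and chrX:134585654-134588062, and their coding sequences are 87.7% identical (279 of 318 bases). The first 60 coding bases (GENCODE M21) show how the differences, in capitals, are spread between the copies.
Rpl36a: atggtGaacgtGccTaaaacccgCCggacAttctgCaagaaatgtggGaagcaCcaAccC
Rpl36al: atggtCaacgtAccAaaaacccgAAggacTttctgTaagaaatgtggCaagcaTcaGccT
Rpl36al was at 54.6, 53.2, 60.6 and 55.0 CPM in input WT and at 230, 293 and 49.0 CPM in TRAP WT. Its WT log2 fold change was 1.76 ± 0.38 (SE; adjusted p 0.000794, edgeR) with all libraries, 2.21 ± 0.12 without TRAP WT 3 and 1.06 ± 0.37 without TRAP WT 2. The KO value was 2.0 ± 0.40, from 51.4, 55.0 and 55.9 CPM in input to 246, 199, 209 and 192 CPM in TRAP.

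**Figure D2:**
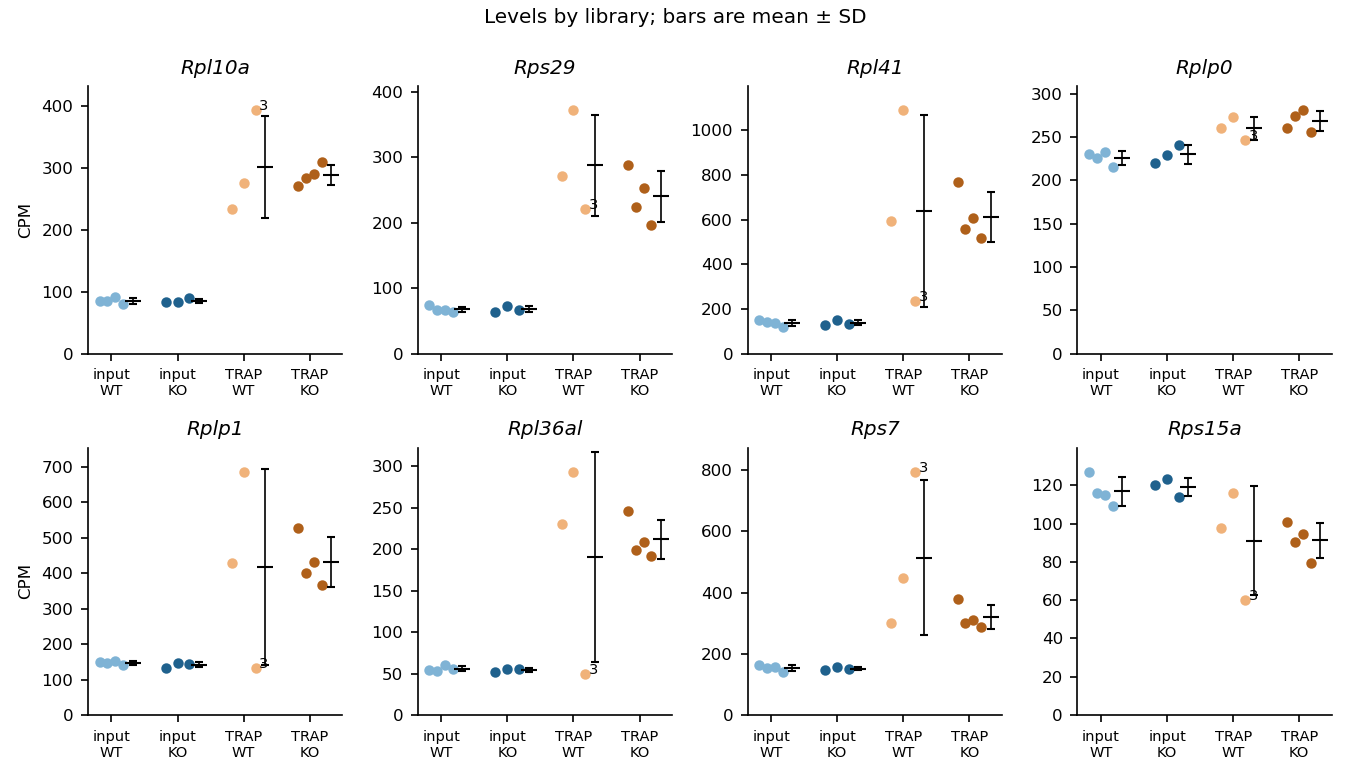
Level in CPM (vertical axes from 0) of 8 ribosomal protein genes in each library of the 4 groups, with the group mean ± SD beside the points; the point marked 3 is TRAP WT 3. Among the TRAP libraries, Rpl10a and Rps7 are highest and Rpl41, Rplp1, Rpl36al and Rps15a are lowest in that library, while the input libraries of each gene lie close together.

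In KO cerebellum 76 of 83 members were higher in TRAP than in input, where 36.3% of all genes were, and 1 was lower, where 39.6% were. The median log2 fold change was 1.03, against -0.11 for all genes. For 79 members every TRAP KO library was above every input KO library, as for 37.3% of all genes. Rps15a and Rpl37rt had every TRAP KO library below, as did 6539 of all 16042 genes. Among the 5 highest values were those of Rpl41 (2.18), Rpl36al (2.0), Rps29 (1.86) and Rpl38 (1.81). Across the 83 members the WT and KO values had a Spearman rho of 0.92; the values come from separate libraries fitted together, and the members share library preparation, depth and transcript length. With library totals 31 members were higher and 6 lower in KO, at a median of 0.29 where all genes had -0.85. Of all 16042 genes, 12802 were then past the threshold, counted in either direction.

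**Figure D3:**
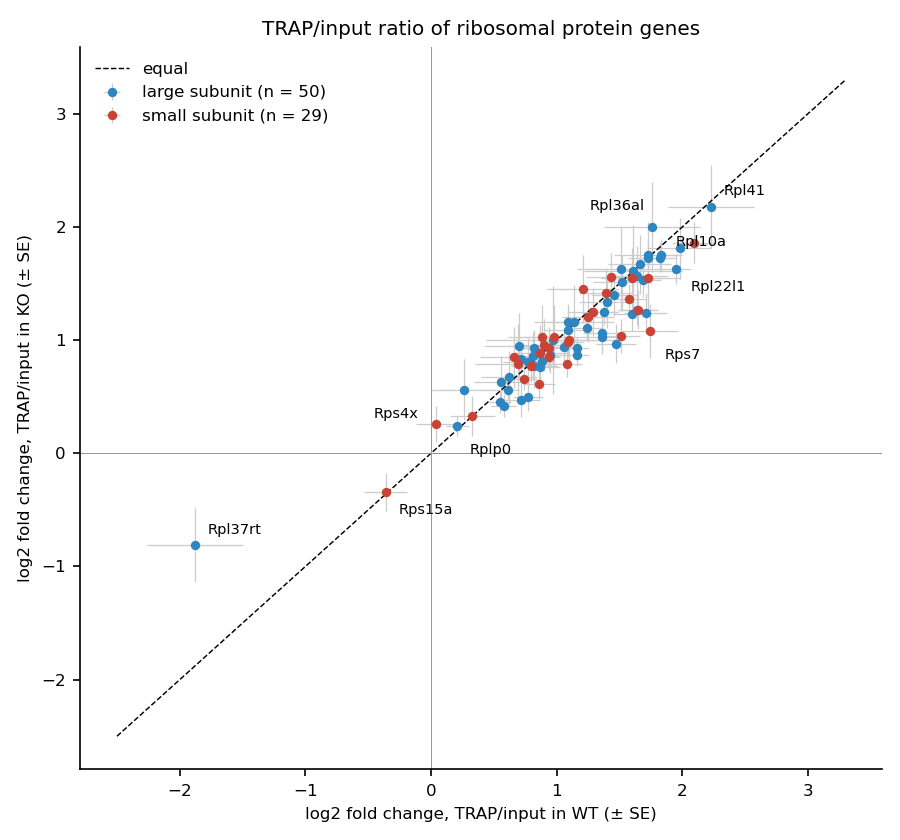
Log2 fold change of TRAP over input (± SE) of 79 of the 83 tested members in WT (horizontal) and KO (vertical), by subunit; the dashed line marks equal values. Points follow the line, with Rpl41 at the upper end and Rps15a and Rpl37rt below 0; under library totals all values shift down, and 36 of 83 members in WT and 31 in KO are then higher in TRAP.

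The TRAP to input ratio fell with coding length. Among 82 members with a coding length, the Spearman rho of the log2 fold change with coding length was -0.67 in WT and -0.70 in KO. It was -0.77 in WT without TRAP WT 3 and was not computed without TRAP WT 2. Members' deviations from the other TRAP libraries had a rho with transcript length of -0.17, -0.51 and 0.24 in TRAP WT 1, 2 and 3. In TRAP KO 1, 2, 3 and 4 this rho was -0.47, 0.29, -0.06 and 0.25. The 21 shortest members (75 to 363 coding bases) had a median of 1.60 in WT and 1.55 in KO. The 20 longest (633 to 1257) had medians of 0.76 and 0.64. With whole transcript length the rho was -0.44 in WT and -0.51 in KO, and over all genes tested it was -0.29 and -0.31. Transcript GC content had a rho of 0.07 in WT and 0.21 in KO.

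When each library was adjusted for transcript length with a smooth offset, the member median fell to 0.60 in WT and 0.41 in KO, where all genes had 0.15 and 0.09. Then 54 members were higher and 2 lower in WT, and 44 were higher and 2 lower in KO. Of all 16042 genes, 11900 in WT and 11738 in KO were past the threshold, counted in either direction. The rho with coding length was -0.37 and -0.44 in these fits. These are descriptions over members that share the same libraries, and the part of fragment length or library preparation in them was not tested. Rpl10a lay above and Rps15a (390 coding bases) lay below the other members of similar length in both genotypes.

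**Figure D4:**
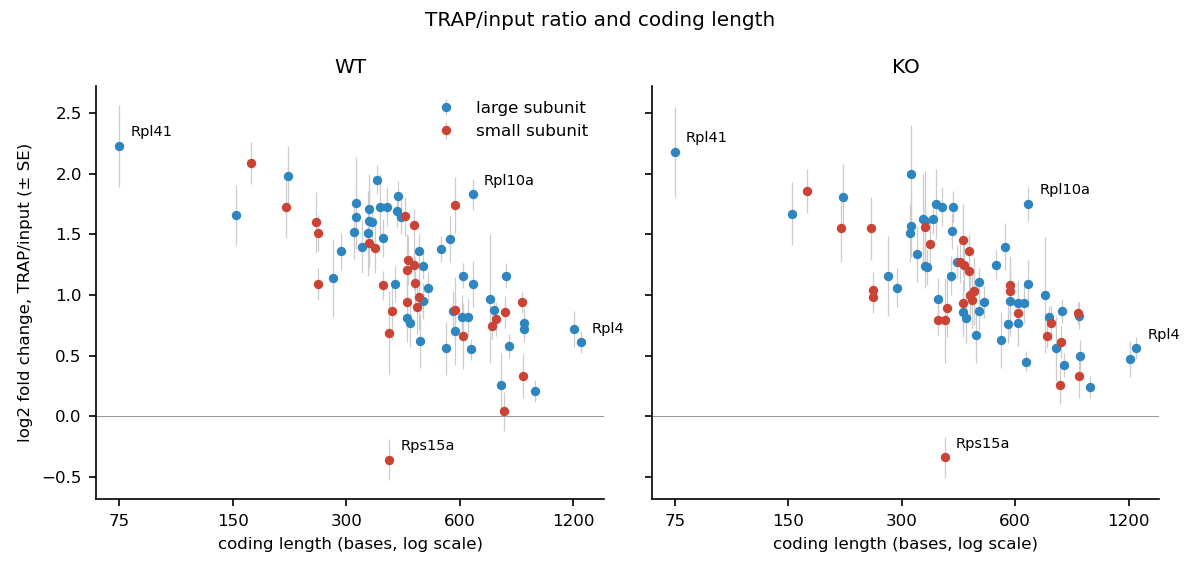
Log2 fold change of TRAP over input (± SE) against coding length in bases (log scale) for 78 of the 82 members in WT (left) and KO (right), by subunit. The ratio falls from Rpl41 at 75 bases to Rpl4 at 1257 bases, with Rpl10a above and Rps15a below the trend; Rpl37rt, which has no annotated coding length here, is not drawn.

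Members with a pyrimidine run at an annotated start had a median WT log2 fold change of 1.16 (29 members tested), and those without had 0.96 (34 members). In KO the medians were 1.03 and 0.93. Both sets ranged widely, from -0.36 to 1.98 and from -1.88 to 2.23 in WT, and no test was made of the difference.

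The comparison of genotypes on Purkinje ribosomes called none of the 83 members, and 0.00707% of all genes tested, which is Astn2 alone. The members' median log2 fold change, KO over WT, was -0.05 with a median SE of 0.23, and none had an unadjusted p under 0.05 in edgeR's test. Of all 14145 genes tested, 95 were higher and 117 lower in KO at that p. DESeq2's Wald test called no member either. Rpl10a differed by 0.00 ± 0.18 (SE), and by 0.18 ± 0.12 without TRAP WT 3. Among the 5 members with the smallest p were Rps7 (-0.58 ± 0.31), Rps23 (-0.41 ± 0.22), Rpl31 (-0.41 ± 0.22) and Rpl7a (-0.27 ± 0.16), each with an adjusted p of 1.0.

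Rps7, at 301, 447 and 795 CPM in TRAP WT and 379, 301, 311 and 289 CPM in TRAP KO had overlapping groups. The WT value of 795 is that of replicate 3, and without it the difference was -0.21 ± 0.19. Rpl31 had 230, 264 and 396 CPM in TRAP WT and 234, 223, 235 and 180 CPM in TRAP KO, and -0.18 ± 0.15 without replicate 3. The median over members was -0.20 without TRAP WT 3 and 0.21 without TRAP WT 2, so its sign depended on which library of the smaller group was kept. Rps2 was the only member whose groups did not overlap, at 351, 351 and 376 CPM in WT and 345, 335, 344 and 326 CPM in KO, a log2 difference of -0.09 ± 0.14; 4.56% of all genes tested had groups that did not overlap.

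In whole cerebellum the precision was greater and again no member was called, with 0.0188% of all genes called. The median log2 fold change was -0.04, with a median SE of 0.066, and 68 of 83 members had a negative value, as did 8344 of 15997 genes. No member had groups that did not overlap, against 11.4% of all genes. At an unadjusted p under 0.05 in edgeR's test, 998 of all 15997 genes were higher and 1200 lower in KO. Rpl37rt had the only unadjusted p under 0.05 among members, with 1.98, 2.32 and 2.15 CPM in KO and 2.72, 3.93, 3.49 and 2.25 CPM in WT, a log2 difference of -0.51 ± 0.22 (unadjusted p 0.0458, adjusted p 0.356, edgeR). Rps15 (-0.13 ± 0.06), Rps23 (-0.12 ± 0.07), Rpl38 (-0.11 ± 0.06) and Rplp2 (-0.09 ± 0.05) came next. Rpl10a differed by -0.02 ± 0.06.

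The difference of the TRAP to input ratio between genotypes, tested as an interaction, was past the threshold for no member and for 0.0% of all genes. At an unadjusted p under 0.05 in edgeR's test, 228 genes had a higher and 202 a lower ratio in KO. The members' median was -0.05 with a median SE of 0.26. Rps27l had the only unadjusted p under 0.05 among members, at -0.47 ± 0.21 (p 0.043, adjusted p 0.999, edgeR): its TRAP levels were 23.1, 28.4 and 35.7 CPM in WT and 24.7, 24.5, 22.8 and 22.1 CPM in KO. The WT value of 35.7 is that of TRAP WT 3. Without that library the WT log2 fold change of Rps27l, TRAP over input, was 1.30 ± 0.13, against 1.51 ± 0.15 with all libraries. Rpl10a had an interaction of -0.08 ± 0.19. The interaction uses the same libraries as the comparisons above.

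Other genes of translation, from lists of ribosome parts and factors, were read beside the members. Fau, which carries Rps30, was at 70.7 CPM in TRAP WT 3 and at 245 to 448 CPM in the other 6 TRAP libraries, and its WT log2 fold change was 1.12 ± 0.39 (SE), or 0.30 with library totals and 0.17 with length offsets, neither past the threshold. Rack1, on the head of the small subunit, had 0.34 ± 0.09 with TMM factors and -0.48 ± 0.09 with library totals, past the threshold both times. For the mitochondrial ribosome, 78 of 78 genes tested were past the threshold in TRAP's favour in WT and again in KO, each with a median of 1.73. With library totals 66 were higher and 1 lower in WT, at a median of 0.91. Mrpl49, for example, rose by 2.43 ± 0.09 in WT.

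Elongation factors rose in 7 of 10 cases (70.0%) and fell in 2 in WT, but 3 were higher and 4 lower with library totals. Eef2, which moves the ribosome along the mRNA, fell by 0.38 ± 0.09 on the log2 scale. Eef1a2, the neuronal form that delivers aminoacyl-tRNA, rose by 0.40 ± 0.12 with TMM factors and had -0.42 ± 0.12 with library totals. Of 37 initiation factor genes 24 rose and 2 fell, and of 37 ribosome biogenesis genes 19 rose and none fell (1 at an unadjusted p under 0.05 in edgeR's test), with medians of 0.49 and 0.50. With library totals both medians were -0.33, and 17 genes of each list were lower. Of 20 genes that regulate TOP mRNAs 8 rose, among them Rheb, the activator of mTORC1 (2.62 ± 0.13), and 5 fell; the 40.0% that rose are close to the 37.0% of all genes that did. With library totals 4 of the 20 were higher and 14 lower. None of these genes was called between genotypes in TRAP or in input.

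Rpl14 (chr9:120571517-120574653) and the transcribed pseudogene Rpl14-ps1 (chr7:45324958-45325651) shared their counts unevenly between libraries. The aligned coding part has 644 identical bases of 648, and the stretch from coding base 364 to 423 holds 2 of the 4 differences, in capitals.
Rpl14: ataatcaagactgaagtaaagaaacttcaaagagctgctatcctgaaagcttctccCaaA
Rpl14-ps1: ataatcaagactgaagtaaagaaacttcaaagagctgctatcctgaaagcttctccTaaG
Rpl14-ps1 was at 43.9, 43.9, 8.43 and 40.7 CPM in input WT, at 8.63, 74.3 and 7.27 CPM in input KO, at 68.3, 82.9 and 6.68 CPM in TRAP WT and at 0.0, 73.5, 78.7 and 9.15 CPM in TRAP KO. So 6 libraries had at most 9.15 CPM and 8 had at least 40.7 CPM, with both kinds in each of the 4 groups. Rpl14 itself was at 82.6, 78.6, 111 and 79.4 CPM in input WT and at 100, 65.6 and 106 CPM in input KO, higher where the pseudogene was low. The same held in TRAP KO, with Rpl14 at 245, 157, 159 and 206 CPM. It did not hold in TRAP WT, with Rpl14 at 165, 208 and 182 CPM, where replicate 2 had the highest value of both. The sum of both lay between 109 and 140 CPM in input and between 189 and 291 CPM in TRAP. The input and TRAP libraries of the same genotype and number were on the same side in 5 of 6 cases, the exception being KO number 3. The cause of this split was not tested.

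**Figure D5:**
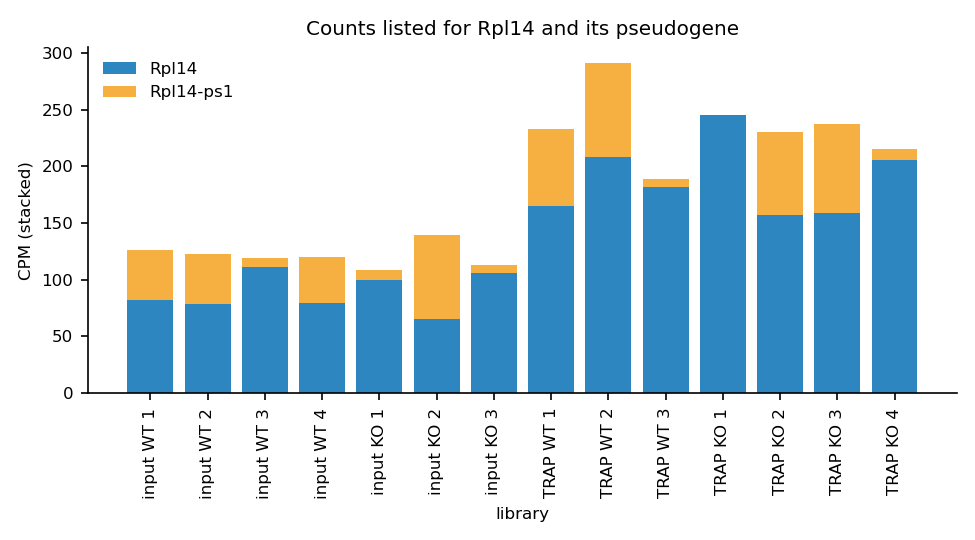
Counts in CPM listed for Rpl14 and, stacked on it, for Rpl14-ps1 in each of the 14 libraries. The pseudogene takes at most 7.93% of the pair in 6 libraries and at least 28.5% in the other 8, and each of the 4 groups holds libraries of both kinds.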

How the data were processed

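The authors deposited raw read counts per gene, as whole numbers with Entrez gene IDs, for 14 libraries. The submitters' processing notes name the build mm10 and Salmon 0.8.2; the counting step, the annotation and the strand setting are not given in the sources used here, so counts of near-identical copies and of overlapping genes are uncertain. Symbols came from RefSeq (GRCm38.p6), which matched 24045 of 24100 IDs, and lengths from GENCODE M21, 1 transcript a gene. All columns matched a sample label.

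The members and all gene lists were chosen with earlier results of these data known. Tests were edgeR 4.0.16 (R 4.3.3) quasi-likelihood tests, two-sided, with TMM factors, filterByExpr, sex as a covariate and Benjamini-Hochberg adjustment over all genes at 0.05. Genotype was tested within each fraction, and TRAP against input and the interaction in all 14 libraries. SEs are the log2 fold change divided by the root of F. Levels are CPM with TMM factors, as mean ± SD. The script was checked on simulated counts. Floors cover counting error alone.

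Named members follow a fixed rule: Rpl10a, members with a listed role or that are copies, the 5 highest and 5 lowest ratios of each TRAP comparison, the 5 smallest p of each genotype comparison, and the 5 highest and lowest levels per kilobase; others are named as chosen by outcome, as neighbours in length or in a figure. Alternatives were DESeq2 1.42.0 (size factors and Wald test), library totals, no filter, a mean count of at least 50, no sex term, each library left out, a replicate block, pseudogene rows added, loess offsets (span 0.3) for length or GC content, all libraries in one fit and limma 3.58.1 quality weights. Proteins were not analysed here, and 4 of the tested members and 1 pathway gene are counted but not reported singly or drawn.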

Additional observations from a re-analysis of the deposited data

Results flagged for a closer look

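In groups of 4 libraries, each named member and the summed level were examined for a library far from the others, measured as its gap to the nearest library divided by the range of the group on the log2(CPM + 1) scale. Chance alone gives such a result in about 1 of 20 independent groups, and 3 were found among 72 groups examined, which is no more than that share. The groups draw on the same libraries, however, so the count cannot be judged against that share. All 3 were in input WT, where replicate 4 was the low library. Rps14 had a gap of 0.933 of the range, at 148 CPM where the others had 173 to 175 CPM. Rps2 had 0.838, at 179 CPM where the others had 191 to 193 CPM. Rps27l had 0.958, at 9.03 CPM where the others had 10.6 to 10.7 CPM. In this library 52 of 83 members were below all 6 other input libraries, at a median deviation of -0.09 on the log2 scale, and 62.7% of members lay outside the range of the others, against 34.3% of all genes.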

How the results depend on the processing

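Of 1930 comparisons of a named member with its value under an alternative, 1824 kept their side of the threshold. Of the others, 66 lost the call, 22 gained one and 18 changed sign with a call in either fit. A sign change with a call in neither fit is counted among the 1824, as for Rps4x, Rpl8 and Rpsa in WT without TRAP WT 2. Many of the 1930 leave out a library of the genotype not compared, or concern genotype comparisons without a call to lose. The total therefore says little about stability. With library totals, 19 of 35 named members kept their side in WT and 17 of 35 in KO. The call of no member between genotypes, in either fraction or as an interaction, held under every alternative run. Numbers of TRAP to input calls moved most. With library totals 36 members were higher and 8 lower in WT (median 0.28), and 31 higher and 6 lower in KO (median 0.29), since that scaling shifted all genes down. With length offsets 2 were lower in WT (median 0.60), and 44 were higher and 2 lower in KO (median 0.41). A mean count of at least 50 gave 2 lower in each genotype and a KO median of 0.84, and GC offsets gave 0 lower and a median of 1.16 in KO. The genotype median in input was 0.05 with length offsets, against -0.04. Leaving out each library gave 62 to 80 higher and 1 to 2 lower in WT (median 0.85 to 1.22), with the lowest count without TRAP WT 2, and 73 to 80 higher and 0 to 2 lower in KO (median 0.91 to 1.07). The share of all genes called in these fits is not given here. The genotype median lay between -0.20 and 0.21 in TRAP, and in input between -0.05 and -0.02.

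Sign changes are listed here only where the value was past the threshold in either fit. Under library totals the sign changed in WT for Rpl13 (-0.00), Rpl3 (-0.11), Rpl5 (-0.05), Rplp0 (-0.61), Rps3 (-0.08), Rps4x (-0.78), Rps6 (-0.02) and Rpsa (-0.49). In KO it changed for Rpl3 (-0.27), Rpl5 (-0.23), Rplp0 (-0.49), Rps3 (-0.08) and Rps4x (-0.47). With length offsets it changed for Rplp0 (-0.08 in WT, -0.11 in KO) and Rps4x (-0.51, -0.30), and at a mean count of 50 or more for Rplp0 in WT (-0.00). The cause was not tested for the other settings.

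Same-numbered libraries deviated together with r of 0.292, 0.243 and 0.099 between fractions in WT and 0.225, 0.224 and -0.124 in KO. Between genotypes within a fraction, r lay between -0.196 and 0.143. The sexes of same-numbered input and TRAP libraries match, and Rpl14-ps1 was on the same side in them except in KO number 3. The labels do not state whether the numbers mark pairs. The main tests did not use them as pairs, so a pairing that may exist was left out there. With the replicate block, which leaves out input WT 4 and TRAP KO 4 between fractions, 69 members were higher and 2 lower in WT (median 1.03) and 75 higher and 0 lower in KO (median 1.07). Of all genes tested, 11593 in WT and 11442 in KO were past the threshold in that fit, counted in either direction. The genotype medians were then 0.06 in TRAP and -0.04 in input, with 0 members called.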
